A study of Mus musculus with 6 samples.

Results

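The AP-1 genes Jun, Junb, Jund, Fos, Fosb, Fosl1, Fosl2, Atf3, Batf and Batf3 were examined in CUT&RUN lists of GATA4 and GATA6 binding in mouse XEN cells. They are 10 of the 21938 protein-coding genes annotated by GENCODE on mm10, taken as a named family and not by any measured value. XEN cells are stem cell lines of the extraembryonic endoderm, the lineage descended from primitive endoderm. All 6 libraries came from XEN cells whose genotype was given as 3F2, with 3 libraries made with an antibody against GATA4 and 3 against GATA6. The methods of the study name a second line and fewer replicates, so the labels were followed here. Each reaction used 500000 cells and the labels state 30000000 reads per sample, with no treatment or genotype differing between the groups, and no library made with a control antibody was used. In CUT&RUN, an antibody tethers a nuclease that releases the DNA around the bound factor, and each deposited list holds the regions where the released fragments piled up. A combined list per factor keeps the regions found in all 3 of its libraries.

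AP-1 is a family of leucine zipper transcription factors that bind DNA only as dimers. JUN proteins pair with each other or with FOS proteins, FOS proteins need a JUN partner, and the ATF3 and BATF proteins pair mainly with JUN proteins. Dimers of JUN and FOS favour the letters TGAGTCA or TGACTCA, and dimers with ATF partners favour TGACGTCA, the cAMP response element. GATA4 and GATA6, the zinc finger factors that specify primitive endoderm, recognise AGATAA and its close variants. Many AP-1 genes are switched on within minutes of growth factor or stress signals, and JUN is known to act on its own promoter.

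A gene was counted as having a region when a region overlapped its body or lay within 50 kb of any annotated transcription start site (TSS). GATA4 had a combined region at 9 of the 10 AP-1 genes and GATA6 at 5, and the 5 GATA6 genes were all among the 9. Batf3 had neither. Where a region in at least 2 of the 3 libraries was enough, GATA4 had one at 9 genes (65.3% of all protein-coding genes) and GATA6 at 8 (60.4%). By the rule of all 3 libraries 48.2% of all protein-coding genes had a GATA4 region, 38.3% a GATA6 region and 33.8% both, so the GATA6 and shared counts stood closer to the background than the GATA4 count did. The window of 50 kb is wide enough that, in the single libraries, between 82.2% and 85.1% of all genes had at least 1 region.

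The counts by the rule of all 3 libraries are given for the 3 subfamilies, beside the 48.2%, 38.3% and 33.8% of all genes above. All 3 JUN genes had a region of both factors. All 4 FOS genes had a GATA4 region, and 2 of the 4, Fosb and Fosl1, also had a GATA6 region. Of the ATF3 and BATF genes, 2 of 3 had a GATA4 region and 0 of 3 a GATA6 region. Atf3 and Batf each had a region in 2 of the 3 GATA6 libraries, so the count of 0 depends on the rule. The subfamily counts are over 3 or 4 genes, and no test was made of the differences between subfamilies.

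Counting only regions within 1 kb of a TSS separated the genes further. GATA4 regions lay at a TSS of Jun, Junb, Jund and Atf3, 4 of 10 genes against 19.8% of all protein-coding genes. GATA6 regions lay at a TSS of Jun, Junb and Jund, 3 of 10 genes against 13.8%, and the same 3 genes had both, against 10.5%. No FOS gene had a combined region of either factor at a TSS. Base composition moved with this count. Genes with at least 60% G and C around the TSS, which include 9 of the 10 AP-1 genes and leave out only Batf, had a GATA4 region at the TSS in 28.9% of cases and a GATA6 region in 20.2%, whereas genes with less than 50% had one in 1.29% and 0.912%. The part of base composition in the AP-1 counts was not tested.

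The call at Junb rested on a noncoding transcript. Its GATA4 and GATA6 regions covered the start of a processed transcript that begins 368 bp beyond the 3′ end of the coding transcript and 2176 bp downstream of the coding start. With starts of protein-coding transcripts alone, GATA4 had 3 of the 10 genes (Jun, Jund and Atf3; 19.1% of all genes), GATA6 had 2 (Jun and Jund; 13.3%), and both factors shared those 2 (10.1%).

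**Figure D1:**
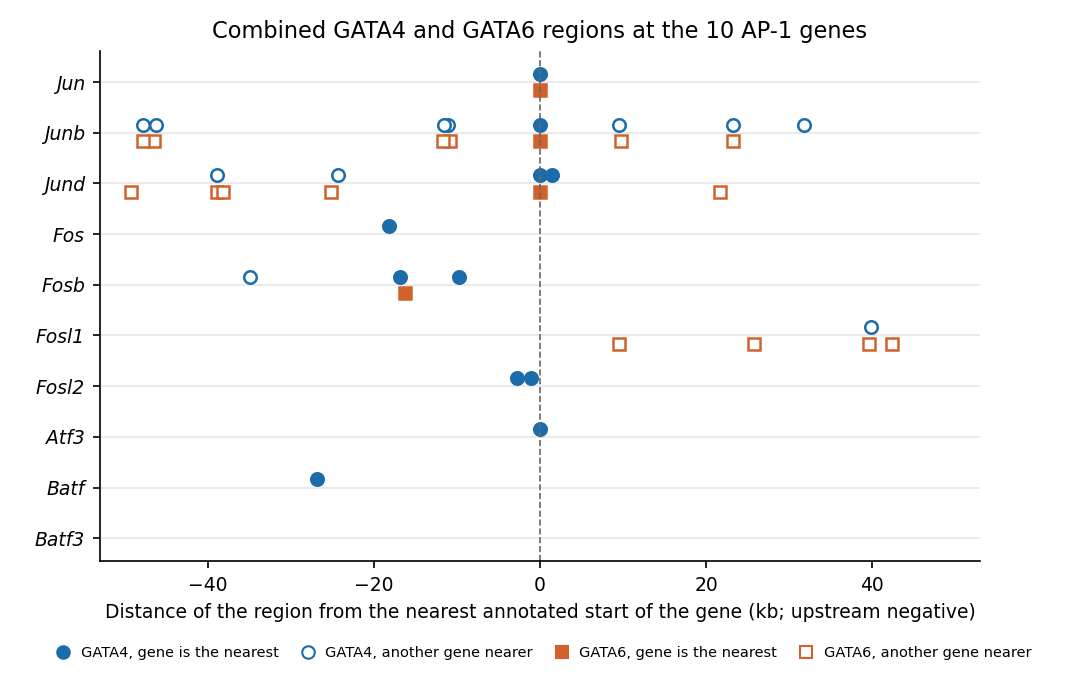
Position of each combined region relative to the nearest annotated start of its AP-1 gene, in kb with upstream negative; circles are GATA4 regions, squares are GATA6 regions, and open symbols mark regions for which the start of another protein-coding gene was nearer. At Junb, Jund and Fosl1 most symbols are open, whereas the regions at Jun, Fos, Fosl2, Atf3 and Batf are filled; the Fosl2 symbol at -2740 bp is measured from an internal start and lies in an intron.

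In all, 22 of the 8282 combined GATA4 regions and 19 of the 5170 combined GATA6 regions lay at AP-1 genes, and 12 of each overlapped a region of the other list. In each list 7 of these 12 lay at Junb and 3 at Jund. The share of all combined regions that overlap the other list was not set beside this count. The AP-1 gene was the nearest protein-coding gene for 11 of the 22 GATA4 regions and for 4 of the 19 GATA6 regions. Junb and Jund held most of the rest. Signal in the lists is not scaled for sequencing depth, so the strength of a region is given as the percentile of its total signal among all regions of its own library. The median of the mean percentiles was 88.3 for GATA4 regions at AP-1 genes and 85.0 for all combined GATA4 regions, and 91.4 and 83.5 for GATA6. The medians at AP-1 genes include regions nearer to another gene. Among GATA4 regions nearest to their AP-1 gene, that at Jun lay above 85.0 and those at Junb, Fos, Atf3 and Batf below it. Jund, Fosb and Fosl2 each had such regions on both sides. Of the corresponding GATA6 regions, those at Jun and Jund lay above 83.5 and those at Junb and Fosb below it. The medians thus do not show stronger signal at the regions nearest to the AP-1 genes.

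Jun encodes the prototype of the JUN proteins and its start carried a region in all 6 libraries. It lies on chromosome 4 on the minus strand, with a single annotated TSS at position 95052222. The combined GATA4 region was chr4:95051967-95052727 and the combined GATA6 region chr4:95051780-95052840, each covering the TSS and part of the 5′ UTR. The 200 bases just upstream of the start, read 5′ to 3′ on the strand of the gene (chr4:95052223-95052422, minus strand, RefSeq GRCm38.p6), are shown because both regions cover them and all 6 maxima fell inside. Capitals mark TGACATCA, 45 bases upstream, and AGATAA, 8 bases upstream.
Jun promoter: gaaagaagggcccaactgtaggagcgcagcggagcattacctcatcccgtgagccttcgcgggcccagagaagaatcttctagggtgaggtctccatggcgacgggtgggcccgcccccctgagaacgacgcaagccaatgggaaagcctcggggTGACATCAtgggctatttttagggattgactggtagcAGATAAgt

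TGACATCA is the element known as the proximal AP-1 site of the Jun promoter, and it was added to the search after the sequence had been seen. Of 32851 mouse promoters in the RefSeq table, 2.66% held TGACATCA in the 200 bases upstream of the start on either strand, and 21.4% held a GATA motif, taken here as AGATAA or AGATAG or the same letters beginning with T (TGATAA or TGATAG). Both matches are descriptions of the letters and not evidence of a bound site.

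The position of strongest signal at Jun lay within a short stretch in all 6 libraries. In the GATA4 libraries it lay 58, 64 and 72 bp upstream of the TSS in replicates 1, 2 and 3. In the GATA6 libraries it lay 96, 77 and 60 bp upstream. All 6 thus fell between 58 and 96 bp upstream, upstream of both capitalised motifs. The percentile of total signal was 97.3, 94.2 and 80.5 in the GATA4 libraries (90.7 ± 8.96, SD, n = 3). It was 90.5, 93.4 and 97.9 in the GATA6 libraries (93.9 ± 3.77, SD, n = 3). The Jun start was thus among the stronger regions in every library. A further region 898 bp upstream (chr4:95053120-95053642 when merged) was called in 2 GATA4 and 2 GATA6 libraries and so entered neither combined list.

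Junb encodes a JUN protein that can oppose JUN at shared targets. Its coding transcript runs from 84976910 to 84978718 on the minus strand of chromosome 8. The combined GATA4 region at chr8:84975868-84976853 ended 57 bp short of the 3′ end of that transcript, and the GATA6 region at chr8:84976195-84977260 overlapped its last 351 bp, which are 3′ UTR. All 6 libraries had a region there. Its percentile was 69.8, 84.0 and 95.3 in the GATA4 libraries (83.0 ± 12.7, SD, n = 3) and 29.2, 84.7 and 79.7 in the GATA6 libraries (64.6 ± 30.7, SD, n = 3). Its mean percentiles were lower than those at the Jun start and their SDs larger, although in GATA4 replicate 3 it was the stronger of both regions, and the GATA4 means differ by less than 1 SD.

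At the coding start of Junb the libraries were split. A region within 1 kb of it was called in GATA4 replicates 1 and 3 and in GATA6 replicates 2 and 3. The GATA4 maxima lay 121 and 74 bp upstream of the start, and the GATA6 maxima 824 and 936 bp upstream. Together they merged into chr8:84978665-84980232, which neither combined list holds. The 200 bases upstream of the coding start held none of the searched motifs.

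Jund encodes the most constantly expressed of the JUN proteins in many cell types. It has a single GENCODE transcript on the plus strand of chromosome 8, from 70698949 to 70700616. The combined GATA4 region was chr8:70698179-70699132 and the combined GATA6 region chr8:70698251-70699626, both reaching from the upstream sequence through the TSS into the coding sequence. RefSeq starts the transcript 1210 bp further upstream, so that the stretch of strongest signal is upstream of the gene by one annotation and downstream of the start by the other. The region holds 1 GATA motif 393 bases and 1 TGACGTCA 214 bases upstream of the GENCODE start. They are shown with their flanks (plus strand, RefSeq GRCm38.p6, chr8:70698545-70698572 and chr8:70698725-70698752), motif in capitals, because both combined regions contain them.
Jund GATA site: agacaggggagAGATAGacgcacagatg
Jund TGACGTCA site: cccacccccaTGACGTCAacccacaatg

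At Jund all 6 libraries had a maximum upstream of both sites. It was 488, 454 and 454 bp upstream of the GENCODE start in the GATA4 libraries and 485, 489 and 504 bp upstream in the GATA6 libraries. GATA4 replicate 2 and GATA6 replicate 3 split the stretch into 2 regions, with another maximum 113 and 106 bp upstream. In those libraries the stronger percentile belonged to the proximal piece for GATA4 (77.5 against 64.8) and to the distal piece for GATA6 (80.1 against 70.5). The other 4 libraries had 1 region over both positions, with percentiles of 98.7 and 96.0 for GATA4 and 99.7 and 99.2 for GATA6. Another combined GATA4 region, chr8:70700399-70700879, ran from the 3′ UTR of Jund past the end of the transcript, and all 3 GATA6 libraries also had a region overlapping it.

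Fos encodes the partner of JUN that is induced most rapidly by growth factors. Its combined GATA4 region, chr12:85455027-85455741, lay between genes 18149 bp upstream of the TSS, with Fos the nearest protein-coding gene, and no combined GATA6 region lay in the window. Its maxima were 18448, 18463 and 18428 bp upstream in the 3 GATA4 libraries, at percentiles of 87.8, 86.7 and 62.2 (78.9 ± 14.5, SD, n = 3). Regions overlapping it were called in 2 of the 3 GATA6 libraries, so the difference between the combined lists at Fos came down to 1 library. None of the searched motifs occurred in the GATA4 region. Within 1 kb of a Fos TSS, 2 GATA4 and 2 GATA6 libraries had a region, and neither combined list held one.

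Fosb encodes a second FOS protein, of which a short splice form lacks the activation domain. On the minus strand of chromosome 7, it had 2 combined GATA4 regions in the sequence upstream, at chr7:19319848-19320454 and chr7:19326858-19327941, which lie 9797 and 16807 bp from the nearest TSS. A combined GATA6 region at chr7:19326325-19326833 lay 24 bp from the farther one without touching it, and each of these neighbours was also called in 2 libraries of the other factor. Maxima of the farther GATA4 region fell 17316, 17300 and 17313 bp upstream, and those of the GATA6 region 16509, 16532 and 16513 bp upstream. Each set of maxima fell within a short stretch, and maxima of the other factor's libraries at these places were not compared. The third GATA4 region, chr7:19344994-19345718, was nearest to Ercc1.

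The farther GATA4 region at Fosb was one of 2 combined GATA4 regions at AP-1 genes with an AP-1 motif near the midpoint, and the only one of them that was nearest to its AP-1 gene. The 200 bases around its maximum (chr7:19327251-19327450, plus strand, RefSeq GRCm38.p6) are shown for that reason. Capitals mark TGACTCA and TTATCT, which is AGATAA on the other strand.
Fosb upstream region: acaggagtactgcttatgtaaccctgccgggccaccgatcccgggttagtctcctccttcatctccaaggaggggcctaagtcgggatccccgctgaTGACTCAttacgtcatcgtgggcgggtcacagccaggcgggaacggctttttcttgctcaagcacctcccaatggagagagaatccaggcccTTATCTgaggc

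At the Fosb starts themselves, all 3 GATA4 libraries and GATA6 replicate 1 had a region within 1 kb. The GATA4 regions did not overlap over all 3 libraries, since replicates 1 and 3 had one inside the gene, with maxima 1144 and 1408 bp downstream of a start, and replicates 2 and 3 one upstream, with maxima 390 and 377 bp before it. The GATA6 maximum lay 371 bp upstream. No region at the Fosb starts was therefore found in all 3 libraries of a factor.

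Fosl1 encodes FRA-1, which lacks the strong activation domain of FOS. Its window held 1 combined GATA4 region and 4 combined GATA6 regions, and none of them was nearest to Fosl1. The GATA4 region and 1 overlapping GATA6 region lay at Mus81, and the other GATA6 regions at Ccdc85b, Efemp2 and Cfl1. Within 1 kb of a Fosl1 TSS a region was called in GATA4 replicate 2 and GATA6 replicate 3 alone, at percentiles of 10.4 and 42.9. Fosl1 was thus called within 50 kb through its neighbours.

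Fosl2 encodes FRA-2, which resembles FRA-1. It had 2 combined GATA4 regions on chromosome 5 and no combined GATA6 region. The first, chr5:32133637-32134671, lay 1130 bp upstream of the TSS, just outside the 1 kb rule. Its percentile was 87.4, 97.0 and 98.3 in the 3 libraries (94.2 ± 5.96, SD, n = 3), and 1 GATA6 library had a region there. The second, chr5:32143054-32143781, lay in an intron, was weak (17.9 ± 9.20, SD, n = 3), and had no region in any GATA6 library. The 200 bases around the maximum of the first (chr5:32134260-32134459, plus strand, RefSeq GRCm38.p6) are shown because they hold 3 GATA motifs, the most around the maximum of any combined region at an AP-1 gene. Capitals mark TTATCT, which occurs in 2 places, and TGATAG.
Fosl2 upstream region: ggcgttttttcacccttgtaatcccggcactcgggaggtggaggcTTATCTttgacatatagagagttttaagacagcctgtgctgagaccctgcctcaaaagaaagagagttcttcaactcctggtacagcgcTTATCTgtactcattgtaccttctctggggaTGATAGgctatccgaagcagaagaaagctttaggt

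Atf3 encodes a stress-induced factor that represses many targets as a homodimer. It has 2 coding starts on the minus strand of chromosome 1, and the combined GATA4 region chr1:191183190-191183765 covered the downstream one, at 191183340. The other coding start, at 191218039, had no region within 1 kb in any combined list. The 200 bases upstream of 191183340, read on the strand of the gene (chr1:191183341-191183540, minus strand, RefSeq GRCm38.p6), are shown because Atf3 was the only AP-1 gene with a combined region of GATA4 and not of GATA6 at a TSS. Capitals mark TGATAA, 188 bases upstream, and AGATAG, 180 bases upstream.
Atf3 promoter: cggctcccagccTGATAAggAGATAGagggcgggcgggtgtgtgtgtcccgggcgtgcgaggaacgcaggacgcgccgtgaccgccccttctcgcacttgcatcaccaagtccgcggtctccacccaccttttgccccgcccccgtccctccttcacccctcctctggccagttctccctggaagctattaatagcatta

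The GATA4 maxima at this start lay 116, 20 and 107 bp upstream. Their percentiles were 41.9, 84.0 and 87.7 (71.2 ± 25.4, SD, n = 3), so the region was below the middle of its list in replicate 1 and high in the other libraries. Of the GATA6 libraries, replicate 3 had a region with its maximum 94 bp upstream, at a percentile of 53.2, and replicates 1 and 2 had none within 1 kb. With 3 libraries against 1, the start of Atf3 differed between the lists by calls in 2 GATA6 libraries.

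Batf and Batf3 encode small AP-1 proteins without an activation domain, known chiefly from lymphocytes and dendritic cells. Batf had 1 combined GATA4 region, chr12:85659383-85659787, which lay between genes 26882 bp upstream of its TSS and had Batf as the nearest protein-coding gene. The maxima fell 27175, 27171 and 27208 bp upstream, at percentiles of 63.1, 82.3 and 61.3 (68.9 ± 11.6, SD, n = 3), and no GATA6 library had a region there. The 200 bases around the maximum (chr12:85659361-85659560, plus strand, RefSeq GRCm38.p6) are shown because this was 1 of 2 combined GATA4 regions at AP-1 genes with no region in any GATA6 library, the other being the weak one in the Fosl2 intron. Capitals mark TGATAA and AGATAG.
Batf upstream region: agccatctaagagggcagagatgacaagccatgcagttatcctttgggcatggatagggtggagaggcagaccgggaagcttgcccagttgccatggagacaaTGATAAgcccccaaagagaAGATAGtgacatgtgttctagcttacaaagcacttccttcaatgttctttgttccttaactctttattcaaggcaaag

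No library had a region within 1 kb of a Batf TSS. Batf3 had 8 merged regions over the 6 libraries, each called in 1 library alone, and GATA4 replicate 3 and GATA6 replicates 2 and 3 had none.

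The searched letters were counted in all combined regions at AP-1 genes. Within 100 bp of the region midpoint, 6 of 22 GATA4 regions and 3 of 19 GATA6 regions at AP-1 genes held a GATA motif. On either strand, 39.7% and 33.0% of all regions of each list held one. The AP-1 letters TGAGTCA or TGACTCA were present in 2 of the 22 GATA4 regions (5.48% of all) and 0 of the 19 GATA6 regions (4.87% of all). TGACGTCA was present in 1 GATA4 region, that at Jund (1.34% of all). TGACATCA was present in 2 GATA4 regions, at Jun and Batf (1.33% of all), and in 1 GATA6 region, at Jun (1.33% of all). Over whole regions, 16 of 22 and 10 of 19 held a GATA motif, beside 70.8% and 64.5% of all, and 4 and 2 held AP-1 letters, beside 16.8% and 15.2%. Around the maximum of signal a GATA motif was present in 7 of 22 and 4 of 19, beside 44.9% and 36.0% of all. The regions upstream of Fosl2 and Batf and the farther one upstream of Fosb held GATA motifs there, whereas the one upstream of Fos and the nearer one upstream of Fosb did not.

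The number of regions in a gene's window was next compared between factors, as the labels give 3 libraries of each. A two-sided exact permutation test over the 6 libraries was used for each gene, which cannot give a p below 0.1 with 3 against 3, with Benjamini-Hochberg adjustment over the 10 genes. Nothing in the labels says that the libraries came from separate cultures, so these p-values measure only the spread between libraries. At Jun the libraries had 3, 4 and 3 regions for GATA4 and 3, 4 and 3 for GATA6 (exact p = 1). At Fosl2 they had 5, 4 and 2 for GATA4 and 2, 1 and 0 for GATA6, a mean of 3.67 ± 1.53 against 1.0 ± 1.0 (SD, n = 3, exact p = 0.2). The Fosl2 groups touched at 2 regions and so overlapped. At Fosb they had 9, 10 and 13 against 3, 10 and 7, a mean of 10.7 ± 2.08 against 6.67 ± 3.51 (SD, n = 3, exact p = 0.3). At Jund the order was the other way, with 12, 12 and 7 for GATA4 and 14, 10 and 16 for GATA6 (exact p = 0.4).

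At none of the 10 genes did the libraries of the factors separate. The remaining 6 genes had exact p from 0.6 to 1, and every adjusted exact p was 1. Junb had the most regions, 21, 17 and 17 for GATA4 and 14, 12 and 23 for GATA6. Batf3 had the fewest, 2, 4 and 0 for GATA4 and 2, 0 and 0 for GATA6. Every GATA4 library lay above every GATA6 library at 0 of the 10 genes, against 5.36% of all protein-coding genes, and the reverse held at 0 of 10, against 1.49%. The GATA4 lists were the longer ones, with 46646 to 49597 regions against 42446 to 46484 for GATA6.

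**Figure D2:**
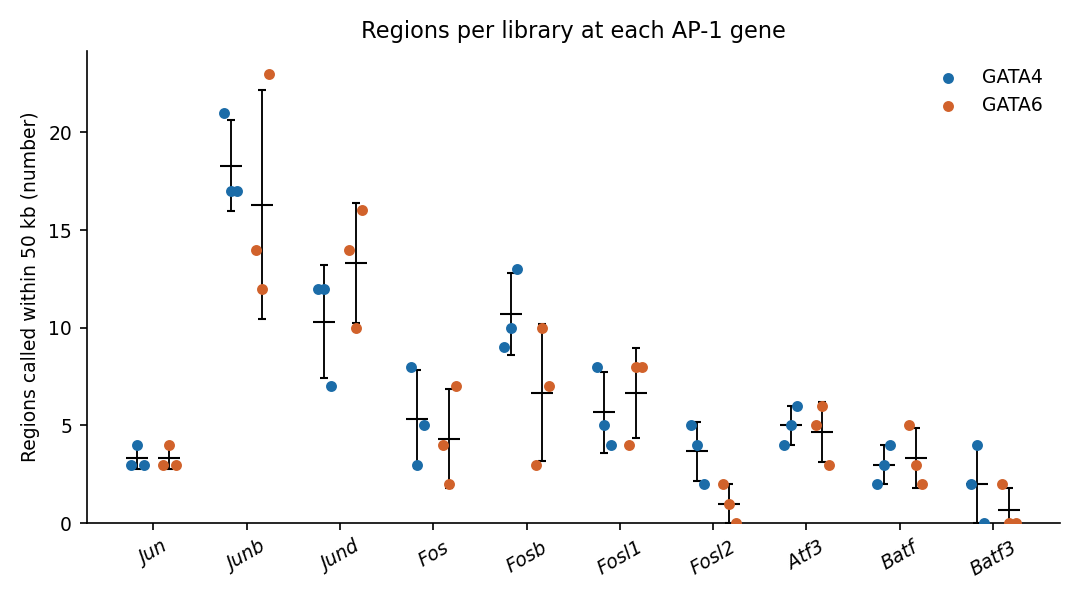
Number of regions within 50 kb of each AP-1 gene in each library; points are libraries (3 GATA4 and 3 GATA6), horizontal bars the means and whiskers the SD. The points of the 2 factors overlap at all 10 genes; Junb reaches 23 regions in a GATA6 library, and Batf3 has 0 in 3 libraries.

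Neighbouring genes were counted because Junb and Jund lie on chromosome 8 and Fosl1 on chromosome 19, where regions are dense. Of the other protein-coding genes with a TSS within 1 Mb, the share with a combined region within 50 kb was 20% (2 of 10) for GATA4 and 10.0% (1 of 10) for GATA6 around Jun. Around Jund it was 100% for both factors, 88 of 88 genes, and around Junb 93.5% and 95.2% of 62 genes. A region within 50 kb therefore set Jund apart from none of its neighbours, whereas Jun, which has no other protein-coding TSS in its window, had both factors in surroundings where few genes had either. The count of 10 neighbours is small, and no test was made.

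The surroundings of the other genes lay between these. Around Fosl1, 80.4% of 102 genes had a GATA4 region and 73.5% a GATA6 region, and 10 other protein-coding genes had a TSS in its window. Around Fos the shares were 48.3% and 13.8% of 29 genes, and around Batf, which is near Fos on chromosome 12, 50% and 15.4% of 26 genes. Of the 5 genes without a combined GATA6 region, Fos and Batf thus stood among few neighbours with one. Fosl2 had none although 54.8% of its 31 neighbours did (77.4% for GATA4), and around Fosb, which had both factors, the shares were 66.2% and 54.5% of 77 genes. Around Atf3 and Batf3, which are neighbours on chromosome 1, they were 70.0% and 65.0% of 20 genes and 73.7% and 63.2% of 19 genes, so that Atf3 lacked a combined GATA6 region, and Batf3 any combined region, where most nearby genes had one.

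Neighbours were counted at a TSS as well. Within 1 kb, 63.6% of the genes around Jund had a GATA4 region and 54.5% a GATA6 region, and around Junb 46.8% and 41.9%. Around Jun it was 10.0% for each factor, 1 gene of 10. Around Atf3 it was 35.0% and 30.0%. The combined regions at the Jund start were thus shared with more than 1 in 2 neighbours.

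**Figure D3:**
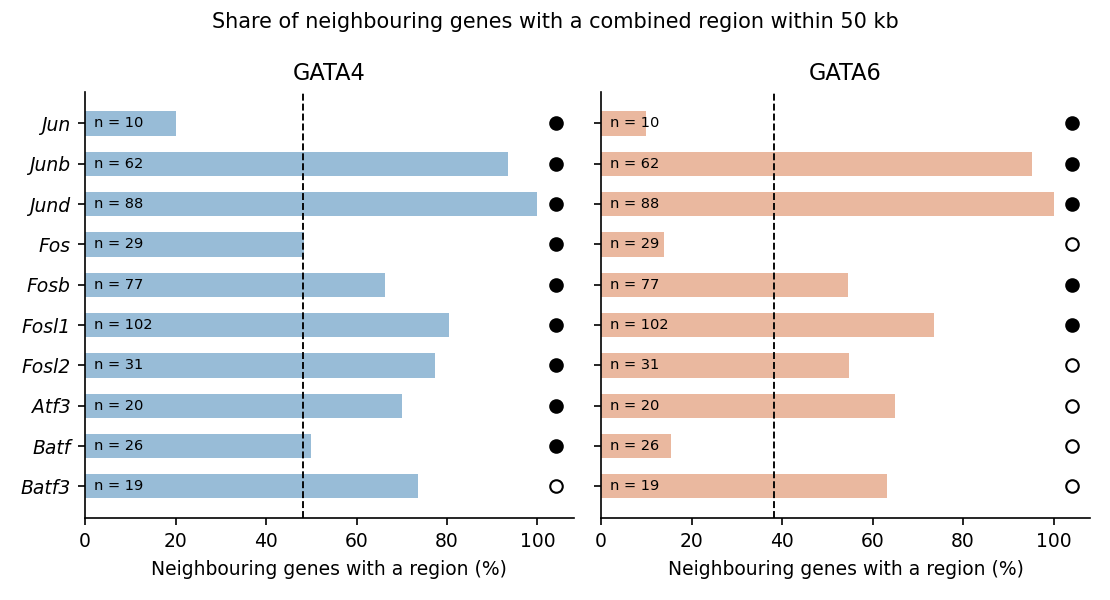
Share of the other protein-coding genes with a TSS within 1 Mb of each AP-1 gene that had a combined GATA4 (left) or GATA6 (right) region within 50 kb; n is the number of neighbours, the dashed line is the share of all protein-coding genes (48.2% and 38.3%), and a filled circle at the right marks an AP-1 gene that itself had a region. Jun stands among neighbours with 20% and 10.0%, and Jund among neighbours with 100%.

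The density of regions in the window was also set against that of the flanking sequence out to 1 Mb in each library. At Jun it was 1.88 ± 0.152 times the flanks for GATA4 and 2.33 ± 0.412 times for GATA6 (SD, n = 3). At Junb it was 2.44 ± 0.112 and 2.38 ± 0.652 times, in flanks that themselves held 73.3 and 65.2 regions per Mb, against 17.7 and 14.3 at Jun. Fosb had the highest ratio for each factor by these settings, 4.1 ± 1.16 and 3.40 ± 1.70. With flanks of 500 kb they were 2.43 and 2.01, and with flanks of 2 Mb 7.54 and 6.13. The rank depended on the settings. With flanks of 500 kb the GATA6 ratio was higher at Jun (2.41), Atf3 (2.16) and Junb (2.02), and the GATA4 ratio equalled that at Fosl2. With a window of 25 kb the GATA6 ratio was 4.80 at Jun and 3.44 at Fosb. Jund, Fosl1 and Batf3 had GATA4 ratios of 1.21 ± 0.389, 1.31 ± 0.487 and 1.18 ± 1.22. The Fosl1 value fell to 0.754 with a window of 25 kb, and the Batf3 value to 0.557 without GATA4 replicate 2. At Fosl2 the GATA6 ratio was 0.481 ± 0.428 and the GATA4 ratio 1.47 ± 0.541, and their difference was not tested. Without GATA6 replicate 1 or 3 the Fosl2 GATA6 ratio was 0.311 or 0.722, and its GATA4 ratio was 2.43 with flanks of 500 kb and 2.53 with a window of 25 kb.

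Most regions at the AP-1 genes were seen in few libraries. When regions of the 6 libraries were merged, the windows held 169 of them, of which 100 were called in 1 library, 57 in 2 to 5 and 12 in all 6. The split over all merged regions was not set beside this, so it is no trait of the AP-1 genes. Single libraries held 42446 to 49597 regions, and the combined lists 8282 and 5170. The 12 merged regions called in all 6 libraries stood at Junb (6), Jund (4), Jun (1) and Fosl1 (1). Seen by library, Jun and Jund had a region within 1 kb of the coding start in 6 of 6 libraries, as did 11.3% of all protein-coding genes. Junb, Fos, Fosb and Atf3 had one in 4 of 6 (7.15% of all genes). Fosl1 had one in 2 (8.29%), Fosl2 in 1 (14.7%), and Batf and Batf3 in none (43.2%). The split among Fos, Fosb and Atf3 was 2 GATA4 and 2 GATA6 libraries at Fos and 3 and 1 at Fosb and Atf3.

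Other genes of the AP-1 pathway were counted by the same rules, from a list of 36 dimer partners, kinases, regulators of Fos and Jun transcription, and targets. Within 50 kb, 20 of the 36 had a GATA4 region, 15 a GATA6 region and 12 both, beside 48.2%, 38.3% and 33.8% of all genes. At a TSS the counts were 9, 7 and 3, beside 19.8%, 13.8% and 10.5%. These shares lie near the background, and the genes below are named as a description. The 3 with both at a TSS were Maff, which encodes a small MAF protein, and Map2k4 and Map2k7, which encode the kinases that activate JNK, the kinase of JUN. Of the JNK genes themselves, Mapk8 and Mapk9 had a GATA4 region at a TSS and no combined GATA6 region in the window, and Mapk10 had neither. Among 10 AP-1 targets, Hmox1 alone had a TSS region, of GATA4. Jdp2, a dimer partner encoded between Fos and Batf, had no combined region in its window.

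The primitive endoderm genes Gata4, Gata6, Sox17, Sox7, Pdgfra, Foxa2, Dab2, Lama1 and Col4a1 were counted as a description beside the cell label. They include the genes of both factors and were chosen with earlier results known, so they are no independent check of it. All 9 had a GATA4 region within 50 kb and 7 of 9 a GATA6 region, against 48.2% and 38.3% of all genes. At a TSS, 8 and 6 of the 9 had one, against 19.8% and 13.8%. These lists hold binding and no transcript levels, so whether the AP-1 genes or the markers were expressed in these cells was not measured.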

How the data were processed

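CUT&RUN regions were analysed as deposited. Per the study's methods, the authors mapped the read pairs on mm10 by Bowtie2 2.3.4.1, removed duplicates, low-quality, mitochondrial and blacklisted reads, and called regions in each library with SEACR 1.3 at a numeric threshold without normalisation. The deposited library lists give positions, a total signal and a maximum signal. Neither is scaled for depth, so signal was used only as a percentile within its own list. The reads left after filtering are unknown, and precision is given as the SD over 3 libraries. The combined lists hold positions only, and all 8282 GATA4 and 5170 GATA6 regions were recovered here by merging regions present in all 3 libraries.

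Regions overlapped at 1 bp or more. TSSs came from all transcripts of GENCODE M21 on 21 chromosomes, sequences from RefSeq GRCm38.p6, whose promoter table matched 9 of the 10 genes. Motifs were sought on both strands, and G and C content within 250 bp of a TSS. Every AP-1 gene is named, with the nearest gene of each region and pathway genes with both factors at a TSS. Jdp2, the JNK genes and Hmox1 were named after their values were seen. The AP-1 genes and gene lists were chosen with earlier results of these data known. Counting and tests were written in Python 3.11.15 with numpy 2.4.6, scipy 1.17.1 and pysam 0.24.0 and tested on simulated data. Windows, list lengths, starts, support, flanks, leave-one-out and a replicate block were varied.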

Additional observations from a re-analysis of the deposited data

How the results depend on the processing

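The count of AP-1 genes with a GATA4 region within 50 kb lay between 6 and 10 under all alternatives tried. The GATA6 count within 50 kb rose from 5 to 8 where a region in at least 2 of 3 libraries was enough, as the share of all genes rose from 38.3% to 60.4%. It was 6 or 7 when 1 GATA6 library was left out. With the 5′ end of each gene as its only start, GATA4 lay at the TSS of 2 genes, since the Junb and Atf3 calls were at other starts. Among the 7 genes off chromosomes 8 and 19, an alternative chosen after seeing the data, GATA4 lay within 50 kb of 6 and at a TSS of 2, and GATA6 within 50 kb of 2 and at a TSS of 1. Fewer genes were counted there. Starts of protein-coding transcripts alone, also chosen after seeing the data, gave 3 and 2 (19.1% and 13.3% of all genes). The other counts of this paragraph were not set beside the share of all genes under the same alternative. A changed count there cannot be told from a changed background.

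Differences in regions per library (GATA4 minus GATA6) changed sign in 11 of 120 alternatives, and no exact permutation p fell below 0.1. Leaving out 1 library gave -0.167 to 5.33 at Junb, -0.333 to 2.33 at Fos, -0.5 to 1.0 at Atf3 and -1.0 to 0.5 at Batf. Jund was at 1.0 with a window of 100 kb, Atf3 at -0.0149 per 10000 regions called, and Atf3 and Batf at -1.33 and 2.0 with only the higher-signal part of each list; the cause was not tested. Deviations of same-numbered libraries had r = -0.0137, 0.0320 and -0.0284 over genes, and those of differently numbered libraries -0.0600 to 0.0723. Whether same-numbered libraries shared a culture or batch cannot be told from these values. A replicate block left the differences as they were, for example 2.67 at Fosl2, with the smallest exact sign-flip permutation p it allows, 0.250.

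With windows of 25 kb the density ratio at Jun was 3.46 for GATA4 and 4.80 for GATA6. It was 1.53 and 2.41 with flanks of 500 kb, and 2.61 and 3.05 with flanks of 2 Mb. The regions per library are few, which limits what 3 libraries a factor can separate.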
